A study of Mus musculus with 14 samples.

Results

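The mouse hippocampus was described from 2 of the 14 libraries of a transcript signature series, 1 from a female and 1 from a male, chosen by the titles that name brain hippocampus. They were set against the 12 libraries of the 6 other tissues, which are spinal cord, bone marrow, liver, pancreas, parotid gland and stomach, each with 1 library labelled female and 1 labelled male. The female liver label names the right lobe and the male one the left lobe. All 14 carry the strain label C57BL6, and no treatment, age or number of animals per library is given. The measurement is a count of 20-base tags, each the sequence that begins at a GATC site (the cut site of the enzyme DpnII) near the 3′ end of a transcript. Tags that the authors assigned to a transcript with class codes 1 to 4 were summed per UniGene cluster or mitochondrial gene, which gave 22221 genes. Of these, 14682 had enough counts to be tested.

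The hippocampus is a fold of the forebrain in which information passes from the granule cells of the dentate gyrus to the pyramidal cells of the CA3 and CA1 fields. Both cell types release glutamate, and their synapses are the best known site of long-term potentiation, in which calcium entering through NMDA receptors activates kinases and changes the number of AMPA receptors. Local interneurons that release GABA, astrocytes, myelin-forming cells and microglia make up the rest of the tissue, and the choroid plexus of the lateral ventricle lies against it.

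Levels are CPM, counts per 1000000 counts assigned to genes, so a level compares 1 gene between libraries and not 2 genes with each other. CPM leave out the scaling factor that the fitted folds apply to each library (TMM, a trimmed mean). This factor ran from 0.147 in the library labelled male pancreas to 2.49 in female spinal cord. It was 2.26 in each hippocampus library. A ratio of CPM between tissues can therefore differ from the fitted fold. In each pair of values the female library is given before the male one. The hippocampus libraries held 3460719 and 3557180 counts, of which 68.6% and 71.1% fell on genes, and the 14 libraries held 2194028 to 3834568. A count of 0 in a hippocampus library allows up to 1.26 CPM in the female and 1.19 CPM in the male, which covers counting error only. The 2 hippocampus libraries were close to each other: of 5912 genes at 20 CPM or more in both, 0.118% lay 2-fold or more apart, and their Spearman correlation over genes was 0.979. The correlation with the spinal cord libraries was 0.894 to 0.900, and with the other 10 libraries 0.372 to 0.504. The stomach pair stood apart, with 36.0% of such genes 2-fold or more apart. The library labelled male pancreas held Xist, the RNA of the inactive X chromosome, at 209 CPM together with Y-linked Ddx3y at 9.05 CPM, which goes against its label. Both hippocampus labels state the same number of sequenced clusters, which equals the total of the female bone marrow file, so the totals were taken from the files.

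Tags that carried genes described first are shown because each is the measured sequence itself, read from the deposited files. Capitals mark the GATC site.
Ncdn: GATCgccaagttcaaagctg
Crym: GATCttactagtcttgtatc
Spink8: GATCaaattcattgatttct
Nrgn: GATCccggagccaacgccgc
Hpca: GATCtacttccctgcagaag
Hpcal4: GATCaaccctgtgccacgtg
Rtn4rl2: GATCaaaagaaattgtttgg
Chrm1: GATCtagccagacctcctgc
Ptk2b: GATCggtggttgaattaaaa
In the female and the male hippocampus library, the tag shown for Ncdn held 98.2% and 97.8% of the gene's counts. The tag of Crym held 99.5% and 99.6%, and that of Hpca 87.8% and 85.2%. Nrgn was read from this 1 tag alone in all 14 libraries.

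The genes that mark the tissue were high in both libraries. Crym (mu-crystallin, which binds thyroid hormone) had 894 and 939 CPM in hippocampus and 0 to 3.47 CPM with a median of 0.823 in the 12 other libraries. Itpka, the kinase that phosphorylates inositol trisphosphate in dendritic spines, had 626 and 634 CPM in hippocampus and 0 to 15.6 CPM with a median of 2.30 in the 12 other libraries. Neither gene's hippocampus values overlapped those of any other tissue. Ncdn (neurochondrin, a neuronal protein that acts on calmodulin-dependent kinase) had 3826 and 3489.8 CPM in hippocampus and 1.81 to 1434 CPM with a median of 13.2 in the 12 other libraries. Its spinal cord values of 1294 and 1434 CPM were the nearest, and the groups did not overlap. Relative to spinal cord the log2 fold change was 8.38 ± 0.71, adjusted p = 5.04e-06 for Crym, 6.09 ± 0.56, adjusted p = 8.49e-06 for Itpka and 1.55 ± 0.41, adjusted p = 0.0283 for Ncdn. All folds here are log2 values with their standard error from edgeR's quasi-likelihood fit of all 14 libraries, and the adjusted p is corrected over the 14682 genes.

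Which genes no other tissue of the series held at the same level was asked by testing hippocampus against each of the 6 tissues. A gene passed where the least significant of the 6 tests had an adjusted p under 0.05 and all 6 folds were at least 2-fold. Of the 14682 genes, 154 were higher in hippocampus than in each other tissue (1.05%) and 14 were lower than in each (0.0954%). By mean CPM, which leaves out the scaling of the fit, spinal cord was the next highest tissue for 145 of the 154. Bone marrow was next for 4 and stomach for 3. Mean levels of the 154 in hippocampus ran from 36.7 to 1839 CPM, and their ratio to the next tissue, with 1 CPM added to both, had a median of 4.96. It was at least 10 for 31 genes. Ncdn was not among them, because its test against spinal cord missed the threshold once the 6 tests were combined (adjusted p = 0.0834). All 154 kept folds of at least 2 against each tissue in each of 22 other ways of processing the counts. They had been picked by these folds in the same libraries, so this was likely from the start and adds no support. The number that passed the test depended on single libraries: it was 34 and 35 without the female and the male hippocampus library, 34 and 40 without a spinal cord library, 55 and 54 without the library labelled female pancreas and the one labelled male pancreas, and 482 and 471 without a stomach library.

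**Figure D1:**
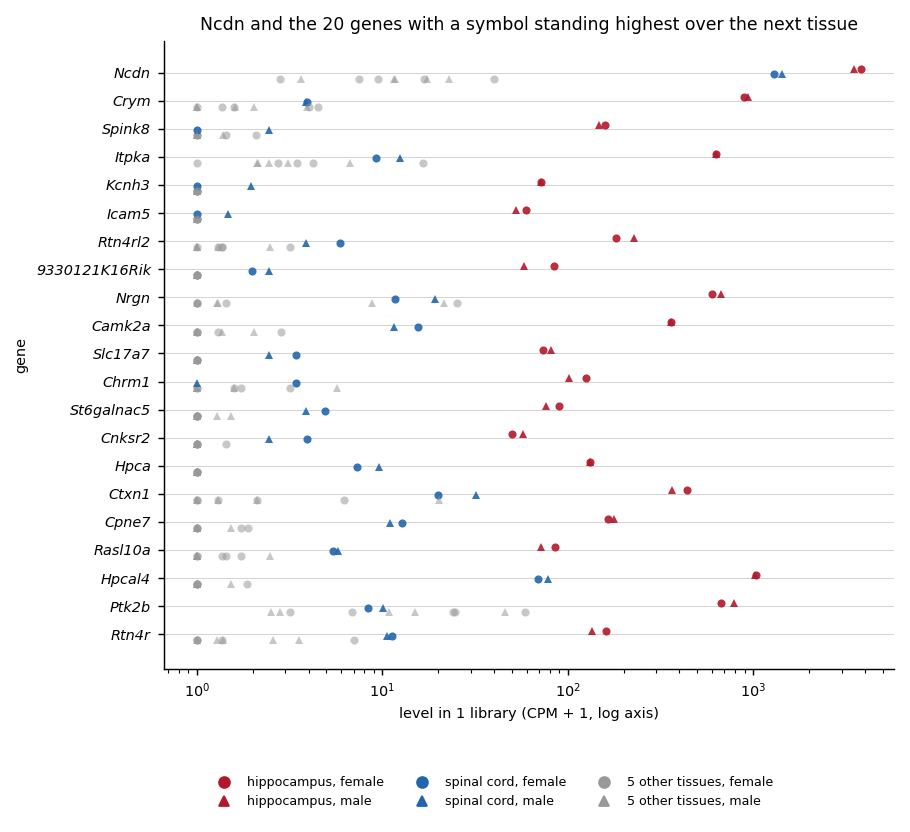
Levels in single libraries (CPM + 1, log axis) of Ncdn and of the 20 genes with the largest ratio of hippocampus to the next tissue among those that have a symbol and were higher than in each tissue; circles are female and triangles male libraries. For Crym the hippocampus libraries sit at 894 and 939 CPM and no other library exceeds 3.47 CPM, while for Ncdn spinal cord comes closest.

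Of the 154 genes, 117 have a symbol, and the 20 of these with the largest ratio to the next tissue are described here. Another 6 clusters with no symbol had larger ratios than the lowest of the 20. Crym, Spink8 and Itpka had the largest ratios. Spink8, a Kazal-type inhibitor of serine proteases, had 159 and 147 CPM in hippocampus, and the highest of the 12 other libraries was male spinal cord at 1.43 CPM. It was read 748 times in hippocampus and 3 times in spinal cord, a ratio of levels of 211 with an exact 95% counting interval of 71.8 to 1023. The smallest of its 6 fitted folds was 3.93 on the log2 scale, against pancreas. That of Itpka was 4.44, below the smallest folds of Icam5 (7.47), Kcnh3 (7.07), 9330121K16Rik (5.85) and Rtn4rl2 (5.83), so the order by ratio of CPM is not the order by fitted fold. Of the 20, Crym, Itpka, Nrgn, Camk2a, Ctxn1 and Hpcal4 passed in all 22 other ways of processing, and the other 14 lost the call in at least 1. DESeq2 lost 6 (Spink8, Kcnh3, Icam5, Cnksr2, Rasl10a and 9330121K16Rik). Leaving out the female pancreas library lost all 14, which are those 6 with Chrm1, Cpne7, Hpca, Ptk2b, Rtn4r, Rtn4rl2, Slc17a7 and St6galnac5. The potassium channel gene Kcnh3 had 70.8 and 71.2 CPM in hippocampus, against a highest value of 0.956 CPM elsewhere. Icam5 (telencephalin, an adhesion protein of forebrain dendrites) had 58.6 and 51.8 CPM in hippocampus, and was read only 1 time in the other 12 libraries together. The muscarinic receptor gene Chrm1 had 125 and 101.2 CPM in hippocampus and 0 to 4.68 CPM with a median of 0.289 in the 12 other libraries. None of the 3 exceeded 4.68 CPM in another library.

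Members of the Nogo receptor family, which bind myelin proteins that restrain axon growth, were also among the 20. Rtn4rl2 had 182 and 228 CPM in hippocampus, against 4.88 and 2.87 CPM in spinal cord. Rtn4r had 159 and 134 CPM in hippocampus, against 10.3 and 9.56 CPM in spinal cord. Rtn1, a reticulon of neurons, had 2258 and 2187 against 1325 and 1257 CPM and did not pass the test between them (adjusted p = 0.237). Ptk2b (the calcium-activated tyrosine kinase Pyk2) had 669 and 792 CPM in hippocampus, against 7.33 and 9.08 CPM in spinal cord, and its highest level elsewhere was 57.5 CPM in female bone marrow. Its fold relative to spinal cord was 6.59 ± 0.69, adjusted p = 1.83e-05. The cortexin gene Ctxn1 had 440.2 and 366 CPM in hippocampus, against 19.05 and 31.1 CPM in spinal cord. The copine gene Cpne7, whose protein binds membranes in the presence of calcium, had 164 and 177 CPM in hippocampus, against 11.7 and 10.04 CPM in spinal cord. The small GTPase gene Rasl10a had 84.7 and 71.2 CPM, the sialyltransferase gene St6galnac5 88.9 and 75.1 CPM and the scaffold gene Cnksr2 48.9 and 56.6 CPM in hippocampus, and none of the 3 exceeded 4.78 CPM in any other library. The transcript 9330121K16Rik, for which the files give no function, had 83.8 and 56.95 CPM in hippocampus, against 0.977 and 1.43 CPM in spinal cord.

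The neuron markers Ncdn, Crym and Itpka belong to a list of 26 genes of pyramidal and granule neurons, which together held 17554 and 17410.4 CPM in hippocampus and 4588 and 4452 CPM in spinal cord. The other 10 libraries held 39.0 to 403 CPM. Across all genes, 28% were called higher and 12.9% lower in hippocampus than in the mean of the other 6 tissues, called the 6-tissue mean from here on. It is the equal-weight mean of the 6 fitted levels on the log2 scale. A gene called higher than this mean can therefore lie below a single tissue. All 26 listed genes were tested, and 25 were called higher, with a median log2 fold of 6.94 beside 0.15 over all genes. Relative to spinal cord, where 3.26% of all genes were called higher and 3.13% lower, 25 of the 26 were higher and none lower, with a median of 2.72 beside -0.04. The list, like those that follow, was written with the tissue in mind and with earlier results of these data known. Its counts and direction are therefore a description. A gene could enter the test through its counts in a single tissue. For lists read mainly in the nervous tissues, calls above the 6-tissue mean were therefore likely from the start. Scaling by library totals in place of TMM (the trimmed mean that the fit uses) moved the median of all genes to 1.46 against the 6-tissue mean, with 8750 genes called higher and 475 lower, and 435 of the 6007 calls changed sign. Against spinal cord that median moved to -0.16 and no call changed sign. Chn1, a Rac regulator of neurons, had 881 and 927 CPM in hippocampus, against 179 and 183 CPM in spinal cord. Slc17a7, the vesicular glutamate transporter of forebrain neurons, had 72.9 and 79.9 CPM in hippocampus, against 2.44 and 1.43 CPM in spinal cord and was at 0 in the 10 other libraries. Slc17a6, the transporter that marks thalamic and many spinal glutamate neurons, ran the other way, with 28.2 and 26.5 CPM in hippocampus, against 211 and 166 CPM in spinal cord (log2 fold -2.65 ± 0.40, adjusted p = 0.00131). Lmo4, a transcriptional cofactor, was the 1 listed gene that did not pass against the 6-tissue mean. It had 54.8 and 65.7 CPM in hippocampus and up to 211 CPM in male stomach.

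In bulk tissue, more cells of a type and more RNA per cell cannot be told apart. That holds for each level given here.

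Markers of the separate fields of the hippocampus were described next. Of 10 CA1 markers 8 were tested, and 7 were called higher and 1 lower than the 6-tissue mean, while 2 were called higher than spinal cord. Wfs1 (wolframin, a protein of the endoplasmic reticulum) had 72.04 and 86.2 CPM in hippocampus, against 35.2 and 33.9 CPM in spinal cord. Its fold against the 6-tissue mean was 2.93 ± 0.29, adjusted p = 1.18e-07, and against spinal cord it was not called (adjusted p = 0.0602). Fibcd1, a chitin-binding membrane protein, was called in both comparisons with 31.2 and 39.5 CPM in hippocampus, against 0.488 and 2.39 CPM in spinal cord. The CA1 marker Man1a, a mannosidase of the Golgi, was the member called lower, with 19.8 and 16.2 CPM in hippocampus and up to 144 CPM in male parotid.

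Of 10 CA2 markers 8 were tested, 7 were called higher than the 6-tissue mean and 2 higher than spinal cord. Rgs14, a regulator of G-protein signalling that restrains plasticity in CA2, had 70.8 and 61.7 CPM in hippocampus, against 3.42 and 3.83 CPM in spinal cord (log2 fold 4.27 ± 0.47, adjusted p = 4.75e-05). Its next highest level was 29.3 CPM in female bone marrow. Pcp4, a calmodulin-binding peptide, had 444 and 445 against 275 and 249 CPM and was not called between them. Map3k15 had no count in either hippocampus library. All 11 CA3 markers were tested, of which 8 were called higher than the 6-tissue mean and 3 higher than spinal cord. Besides Cpne7, Bok (a BCL2-family protein) had 143 and 195 CPM in hippocampus, against 38.6 and 28.2 CPM in spinal cord (log2 fold 2.47 ± 0.51, adjusted p = 0.00497). Elavl2, an RNA-binding protein of neurons, had 38.3 and 31.6 CPM in hippocampus, against 91.8 and 54.03 CPM in spinal cord and was not called between the 2 tissues. The kainate receptor subunit Grik4 had 3.37 and 4.35 against 3.42 and 4.30 CPM, with overlapping values.

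Of 14 dentate gyrus markers 13 were tested, 12 were called higher than the 6-tissue mean and 7 higher than spinal cord. Calb1, the calcium buffer calbindin of granule cells, had 171 and 151 CPM in hippocampus, against 68.9 and 68.4 CPM in spinal cord and was at 0 in the 10 other libraries. Its difference from spinal cord missed the threshold (adjusted p = 0.0558). Trpc6, a cation channel, had 20.6 and 27.3 CPM in hippocampus, against 2.44 and 0.956 CPM in spinal cord (log2 fold 3.88 ± 0.66, adjusted p = 0.0016). Prox1, the transcription factor that sets granule cell identity, had 14.3 and 12.3 CPM in hippocampus, against 14.2 and 9.08 CPM in spinal cord, with overlapping values. Tdo2, which breaks down tryptophan, had 5.06 and 7.51 CPM in hippocampus against 0.488 and 0.956 CPM in spinal cord, and 2843 CPM in female liver. C1ql2, a secreted protein of mossy fibre synapses, was read 23 times in hippocampus and 2 times in the other 12 libraries.

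Transcription factors that pattern or maintain the forebrain were mostly higher in hippocampus. Of 25 listed, 21 had a cluster and 19 were tested, 18 were called higher than the 6-tissue mean, and 12 were called higher than spinal cord and none lower. Lhx2, a LIM-homeobox factor needed for the hippocampus to form, had 37.9 and 44.7 CPM in hippocampus, against 0.488 and 0.478 CPM in spinal cord and at most 2.98 CPM elsewhere. Mef2c, a factor that regulates synapse number, had 108 and 116 CPM in hippocampus, against 12.2 and 8.13 CPM in spinal cord (log2 fold 3.58 ± 0.44, adjusted p = 8.06e-05). Zbtb18, a repressor needed for projection neurons, had 136 and 122 CPM in hippocampus, against 26.4 and 25.3 CPM in spinal cord (log2 fold 2.43 ± 0.35, adjusted p = 2.38e-04). Those 3 were among the 154 genes higher than in each tissue. The nuclear receptor gene Nr2f1 had 64.03 and 63.7 against 33.2 and 38.7 CPM and was not called between the 2 nervous tissues. Nr2f2 passed neither test, with 9.69 and 12.3 CPM in hippocampus and up to 44.7 CPM in male stomach.

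**Figure D2:**
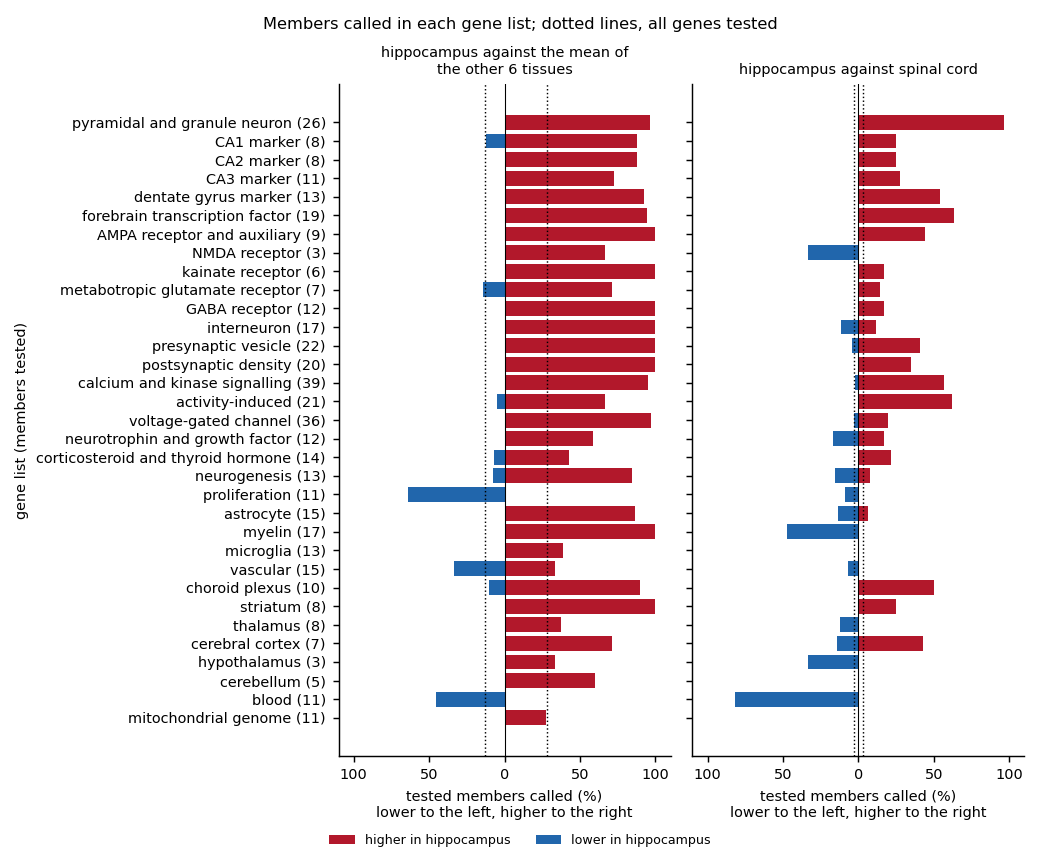
Percentage of the tested members of 33 gene lists that were called higher (red, to the right) or lower (blue, to the left) in hippocampus, against the mean of the other 6 tissues on the left and against spinal cord on the right; dotted lines mark the percentage over all 14682 genes. The list of pyramidal and granule neurons has 25 of 26 members higher in both panels, while myelin has 17 of 17 higher on the left and 8 of 17 lower on the right.

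Among receptors for glutamate, the AMPA type carries fast transmission. All 9 tested of 12 listed AMPA receptor and auxiliary genes were higher than the 6-tissue mean, and 4 were higher than spinal cord. In the 10 libraries outside the nervous tissues the list summed to at most 6.97 CPM. Its calls above the 6-tissue mean were thus likely from the start. Gria1 had 425 and 441 CPM in hippocampus, against 76.2 and 77.5 CPM in spinal cord (log2 fold 2.61 ± 0.38, adjusted p = 7.45e-04). Gria2, the subunit that blocks calcium entry, had 439 and 410.1 CPM in hippocampus, against 114 and 85.6 CPM in spinal cord (log2 fold 2.22 ± 0.43, adjusted p = 0.00412). The auxiliary subunit gene Cnih2 had 163 and 166 CPM in hippocampus, against 29.8 and 20.1 CPM in spinal cord. All 3 were among the 154, whereas Gria3 had 104.9 and 94.1 against 69.3 and 51.6 CPM and was not called against spinal cord. Of 7 listed NMDA receptor genes 5 had a cluster and 3 were tested, of which 2 were higher than the 6-tissue mean. Among the 3 was Grin1, the subunit shared by all these receptors. It had 107 and 113 against 61.05 and 94.7 CPM and was not called between the 2 tissues. Grin3b, a subunit of motor neurons, was called lower than spinal cord at 0 and 0.395 CPM in hippocampus, against 6.35 and 5.74 CPM in spinal cord. All 6 tested kainate receptor genes were higher than the 6-tissue mean and only Grik5, at 93.9 and 108 against 34.2 and 41.6 CPM, was also higher than spinal cord, a call that was lost with scaling by library totals. Of 7 tested metabotropic receptor genes and their Homer scaffolds, 5 were higher and 1 lower than the 6-tissue mean, and with scaling by library totals 6 were higher and none lower. Homer1, which links these receptors to calcium stores, was the 1 called higher than spinal cord, with 74.6 and 69.6 CPM in hippocampus, against 9.28 and 8.61 CPM in spinal cord (log2 fold 3.12 ± 0.55, adjusted p = 0.00183).

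All tested genes of transmission by GABA were called higher than the 6-tissue mean, which was likely from the start for genes read mainly in nervous tissue. Of the 12 tested GABA receptor genes, 2 were called higher than spinal cord, or 1 with scaling by library totals, and their median log2 fold against it was 0.86. The metabotropic subunit gene Gabbr1 had 504 and 555 against 348 and 368 CPM and was not called. All 17 tested interneuron genes were called higher than the 6-tissue mean, while 2 were higher and 2 lower than spinal cord, with a median log2 fold of -0.26. The GABA-synthesising enzyme genes Gad1 and Gad2 had 219 and 218 CPM and 411 and 382 CPM in hippocampus. In spinal cord they had 117 and 115 CPM and 199.7 and 219.9 CPM, and neither passed the test (adjusted p = 0.132 and 0.136). Sst (somatostatin) had 658 and 576 CPM in hippocampus, against 245 and 336 CPM in spinal cord, without passing. For these 3 genes both hippocampus libraries lay above both spinal cord libraries, but how many of all genes separate in this way was not counted. Calb2 (calretinin, a calcium buffer of some interneurons and of young granule cells) fell, with 42.1 and 24.5 CPM in hippocampus, against 227 and 225 CPM in spinal cord (log2 fold -2.69 ± 0.43, adjusted p = 0.00133).

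Genes of both sides of the synapse were read. All 22 tested presynaptic vesicle genes and all 20 tested genes of the postsynaptic density were higher than the 6-tissue mean. For these lists too, read mainly in nervous tissue, such calls were likely from the start. Relative to spinal cord, 9 presynaptic genes were higher and 1 lower, and 7 postsynaptic genes were higher and none lower. The median fold was 0.97 for the presynaptic and 1.59 for the postsynaptic list, a difference that was not tested. Syp, the vesicle protein synaptophysin, had 2053 and 1954 against 1030 and 1178 CPM and was not called between the nervous tissues. Dlgap1, a scaffold that binds PSD-95, had 433 and 448 CPM in hippocampus, against 92.3 and 69.8 CPM in spinal cord (log2 fold 2.57 ± 0.40, adjusted p = 7.90e-04). Dlgap3 had 230.4 and 254 CPM in hippocampus, against 53.2 and 82.2 CPM in spinal cord (log2 fold 1.97 ± 0.40, adjusted p = 0.00586). Dlg4, which encodes PSD-95 itself, had 129 and 125 against 65.9 and 49.2 CPM and did not pass (adjusted p = 0.0777).

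Of 40 listed genes of calcium and kinase signalling 39 were tested, 37 were called higher than the 6-tissue mean, and relative to spinal cord 22 were higher and 1 lower. Of the 154 genes, 11 were on this list. Hpcal4, a calcium sensor related to hippocalcin, had 1034 and 1022 CPM in hippocampus, against 67.9 and 76.98 CPM in spinal cord and was at 0 in 8 of the other 12 libraries (log2 fold relative to spinal cord 3.94 ± 0.41, adjusted p = 5.91e-05). Hpca (hippocalcin) had 131 and 131 CPM in hippocampus, against 6.35 and 8.61 CPM in spinal cord. Camk2a, the kinase subunit that carries long-term potentiation, had 361 and 361 CPM in hippocampus, against 14.7 and 10.5 CPM in spinal cord (log2 fold 4.97 ± 0.52, adjusted p = 3.50e-05). Nrgn (neurogranin, which binds calmodulin) had 602 and 670.4 CPM in hippocampus, against 10.7 and 18.2 CPM in spinal cord, and 24.2 CPM in female bone marrow. Adcy1, the adenylyl cyclase driven by calmodulin, had 479 and 475 CPM in hippocampus, against 100.6 and 101.4 CPM in spinal cord (log2 fold 2.36 ± 0.40, adjusted p = 0.00141). Not every gene of the list followed: Prkar1b had 522 and 473 against 557 and 522 CPM. Ppp3cb and Prkcb passed neither test, with 47.2 and 54.97 CPM and 56.4 and 41.5 CPM in hippocampus.

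Of 21 tested genes induced by neuronal activity, 14 were higher and 1 lower than the 6-tissue mean, and with scaling by library totals 19 were higher and none lower. Relative to spinal cord 13 were higher and none lower. Nr4a3, an orphan nuclear receptor, had 53.5 and 63.7 CPM in hippocampus, against 5.86 and 3.83 CPM in spinal cord (log2 fold 3.71 ± 0.59, adjusted p = 8.13e-04). Nptx2, a pentraxin that clusters AMPA receptors, had 52.2 and 57.7 CPM in hippocampus, against 11.7 and 12.4 CPM in spinal cord (log2 fold 2.30 ± 0.48, adjusted p = 0.00931). Arc, which acts in removing AMPA receptors from the membrane, had 50.6 and 23.3 CPM in hippocampus, against 13.2 and 8.13 CPM in spinal cord (log2 fold 1.86 ± 0.49, adjusted p = 0.0299). Dusp1, a phosphatase that ends kinase signalling, had 36.7 and 91.8 CPM in hippocampus, against 38.6 and 50.7 CPM in spinal cord and passed neither test, with the male hippocampus library above the female one. How the animals were handled is not given in the sources used here.

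Of 36 tested voltage-gated channel genes, 35 were higher than the 6-tissue mean, and 7 were higher and 1 lower than spinal cord. Kcnip2, which modulates A-type potassium channels, had 1025 and 913 CPM in hippocampus, against 78.6 and 92.3 CPM in spinal cord (log2 fold 3.59 ± 0.43, adjusted p = 8.04e-05). The sodium channel beta subunit gene Scn3b had 349 and 317 CPM in hippocampus, against 56.7 and 51.6 CPM in spinal cord (log2 fold 2.74 ± 0.40, adjusted p = 4.59e-04). Hcn2, a pacemaker channel, was the member that fell, with 190.4 and 193 CPM in hippocampus, against 522 and 588 CPM in spinal cord (log2 fold -1.41 ± 0.37, adjusted p = 0.0284). Among growth factors and their receptors, 7 of 12 tested were higher than the 6-tissue mean, and 2 were higher and 2 lower than spinal cord. Ntrk2, the receptor of BDNF, had 163 and 138 against 143 and 127 CPM and was not called between the nervous tissues. Fgf1 fell relative to spinal cord, with 32.4 and 32.4 CPM in hippocampus, against 217 and 195 CPM in spinal cord (log2 fold -2.54 ± 0.38, adjusted p = 3.68e-04).

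Among 14 tested genes of corticosteroid and thyroid hormone response, 6 were higher and 1 lower than the 6-tissue mean, and 3 were higher than spinal cord. With scaling by library totals 10 were higher and none lower than that mean. The thyroid hormone receptor gene Thra had 381 and 375 CPM in hippocampus, against 141 and 156 CPM in spinal cord (log2 fold 1.47 ± 0.36, adjusted p = 0.0166). Thrb had 43.4 and 38.8 CPM in hippocampus, against 13.2 and 10.998 CPM in spinal cord (log2 fold 1.89 ± 0.46, adjusted p = 0.0178). With Crym these made up the 3. Nr3c2, the mineralocorticoid receptor, had 48.9 and 41.5 against 27.3 and 20.1 CPM and Sgk1, a kinase induced by corticosteroids, had 96.5 and 189 against 285 and 300.3 CPM, and neither was called between the nervous tissues.

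Genes of young neurons and of dividing cells were counted separately. Of 13 tested genes of neurogenesis 11 were higher and 1 lower than the 6-tissue mean, and relative to spinal cord 1 was higher and 2 were lower. Stmn1 (stathmin, which destabilises microtubules) had 526 and 506 against 457 and 466 CPM, with no call between the nervous tissues. Cd24a, a surface protein of young neurons that blood cells also carry, was the member lower than the mean, with 16.9 and 12.7 CPM in hippocampus, against 154 and 131 CPM in spinal cord and up to 2416 CPM in male bone marrow. Of 11 tested proliferation genes 7 were lower than the 6-tissue mean and none higher, whereas with scaling by library totals 3 were lower and 1 was higher. Mki67, present in dividing cells, had 2.95 and 0.395 CPM in hippocampus, against 13.2 and 4.78 CPM in spinal cord and 461 CPM in male bone marrow.

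All 17 tested myelin genes were higher than the 6-tissue mean. Relative to spinal cord, the tissue of long fibre tracts, 8 were lower, none was higher and 9 were not called, with a median log2 fold of -1.44. The 18 listed genes summed to 4799.9 and 5221 CPM in hippocampus and 19639 and 19431 CPM in spinal cord. Mobp and Cldn11, which help to build the sheath, had 427 and 422 CPM and 473 and 416 CPM in hippocampus. In spinal cord they had 1217 and 1172 CPM and 1247 and 1105 CPM, and neither passed (adjusted p = 0.065 and 0.0698).

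Of 15 tested astrocyte genes 13 were higher than the 6-tissue mean. Relative to spinal cord 1 was higher and 2 were lower (3 with scaling by library totals), with a median log2 fold of -0.77. The 16 listed genes summed to 8630 and 8312 CPM in hippocampus and 14238 and 13320 CPM in spinal cord. The glutamate transporter gene Slc1a3 was the one that rose, with a log2 fold of 2.22 ± 0.41, adjusted p = 0.00218. Clu (clusterin), which liver also makes, had 515 and 554 against 502 and 449 CPM and passed neither test. For microglia, 5 of 13 tested genes were higher than the 6-tissue mean, beside 28% of all genes. With scaling by library totals 10 were higher, beside 8750 of all 14682 genes. No microglial gene was called in either direction against spinal cord. The summed level of the microglial list was 699 and 668 CPM in hippocampus and 612 and 636 CPM in spinal cord. P2ry12, a receptor for nucleotides on resting microglia, had 14.7 and 24.9 against 18.6 and 17.2 CPM, with overlapping values. Of 15 tested vascular genes 5 were higher and 5 lower than the 6-tissue mean, beside 28% and 12.9% of all genes. With scaling by library totals 9 were higher and 1 was lower, beside 8750 and 475 of all 14682 genes. Slc2a1, the glucose transporter of the blood-brain barrier, had 90.2 and 168 against 167 and 149.7 CPM.

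**Figure D3:**
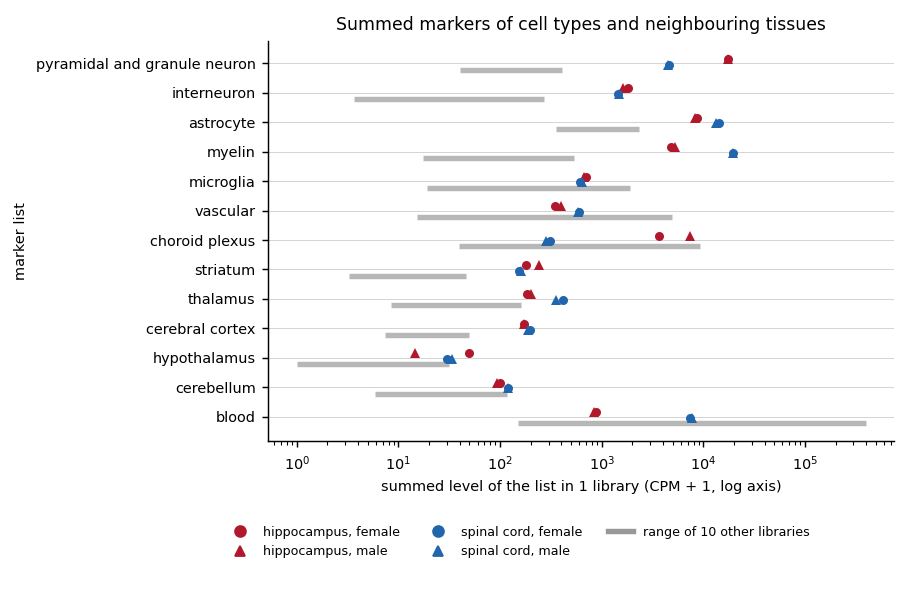
Summed levels (CPM + 1, log axis) of 13 marker lists in each hippocampus library (red), each spinal cord library (blue) and the range of the other 10 libraries (grey bars); circles are female and triangles male. The choroid plexus sum is 3633 and 7346 CPM in hippocampus and 309 and 280.2 CPM in spinal cord, and the blood sum runs the other way.

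Genes of tissue that borders the hippocampus were also read. Of 14 choroid plexus genes 11 had a cluster and 10 were tested, 9 were higher and 1 lower than the 6-tissue mean, and 5 were higher than spinal cord. Their summed level was 3633 and 7346 CPM in the female and the male hippocampus library, against 309 and 280.2 CPM in spinal cord. None of the 11 was at 0 in hippocampus. Ttr (transthyretin, which carries thyroid hormone and which liver also secretes) made up most of it, with 3208 and 6586 CPM in hippocampus against 0 and 1.91 CPM in spinal cord. Otx2, a homeobox factor of the choroid plexus, had 18.96 and 33.2 CPM in hippocampus and no count in the other 12 libraries. With a floor of 3 counts over the 2 spinal cord libraries together it was at least 36.3-fold higher in hippocampus. Clic6, an intracellular chloride channel, had 37.5 and 70.4 CPM in hippocampus, against 0.488 and 0.478 CPM in spinal cord, and 657 CPM in male stomach. Folr1, the folate receptor, had 24.01 and 45.5 CPM in hippocampus, against 1.47 and 0.478 CPM in spinal cord. Each of these 4 genes was higher in the male hippocampus library than in the female one. The part of choroid plexus RNA in the other differences was not tested.

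Markers of other brain regions were also counted. Of 8 tested striatal genes 8 were higher than the 6-tissue mean and 2 higher than spinal cord, the second count being 1 with scaling by library totals. Adora2a, the adenosine receptor of striatal neurons, had 10.5 and 10.7 CPM in hippocampus, against 0.488 and 1.43 CPM in spinal cord, and the dopamine receptor genes Drd2 and Drd1 had 4.63 and 12.3 CPM and 1.26 and 1.19 CPM in hippocampus. Of 7 tested cortical genes 5 were higher than the 6-tissue mean, and 3 were higher and 1 lower than spinal cord. Rprm, a cell cycle regulator that marks deep cortical and subicular neurons, had 24.4 and 36.4 CPM in hippocampus, against 5.86 and 8.61 CPM in spinal cord, while Lamp5 fell with 39.6 and 42.3 CPM in hippocampus, against 135 and 130.1 CPM in spinal cord (log2 fold -1.57 ± 0.40, adjusted p = 0.0291). Of 8 tested thalamic genes 3 were higher than the 6-tissue mean, beside 28% of all genes, and Slc17a6 was lower than spinal cord. With scaling by library totals 6 were higher than that mean, beside 8750 of all 14682 genes. The hypothalamic peptide gene Hcrt (orexin) was read 60 times in the female and 2 times in the male hippocampus library, which is 25.3 and 0.791 CPM, and it was not among the tested genes. Of 5 tested cerebellar genes 3 were higher than the 6-tissue mean and none was called against spinal cord. Of 10 hypothalamic genes 9 had a cluster and 8 of those were read in hippocampus. Only 3 were tested, of which 1 was higher than the 6-tissue mean and 1 lower than spinal cord. Nkx2-1, En2, Barhl1 and Agrp, which define hypothalamus, midbrain or cerebellum, had 1 count or none in the hippocampus libraries. The part of neighbouring tissue in the results was not tested.

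The direct comparison with spinal cord, the other nervous tissue, called 479 genes higher and 459 lower in hippocampus. Of these 938 calls, 632 were also made with DESeq2, 788 with limma voom, 866 with scaling by library totals and 929 with DESeq2 size factors, and none changed sign in those 4. The counts were 1008 higher and 1203 lower without the female stomach library, 1006 and 1206 without the male one, and at most 178 higher and 166 lower without a hippocampus or a spinal cord library. Of the genes whose fold against spinal cord is given here, 17 lost their call when at least 1 library was left out: Ncdn, Hcn2, Lamp5, Arc, Dlgap3, Gria2, Nptx2, Thra, Thrb, Bok, Hbb-b2, Calb2, Slc1a3, Adcy1, Homer1, Slc17a6 and Trpc6. Their direction did not change. Among the 10 largest increases of genes with a symbol and at least 20 CPM in the higher tissue, Kcnj4, an inward rectifier potassium channel, had 26.5 and 23.3 CPM in hippocampus and no count in any of the other 12 libraries. It was at least 34.3-fold higher than in spinal cord. Rin1, a brake on fear memory that acts through Ras, had 40.4 and 28.1 CPM in hippocampus, against 0.488 and 0 CPM in spinal cord. Slc9a4, a sodium-proton exchanger, had 47.6 and 60.1 CPM in hippocampus, against 0.977 and 0 CPM in spinal cord, and 578 CPM in female stomach. Crym, Spink8, Icam5 and Kcnh3 were also among the 10, and so were Ttr, Otx2 and Clic6 of the choroid plexus list.

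**Figure D4:**
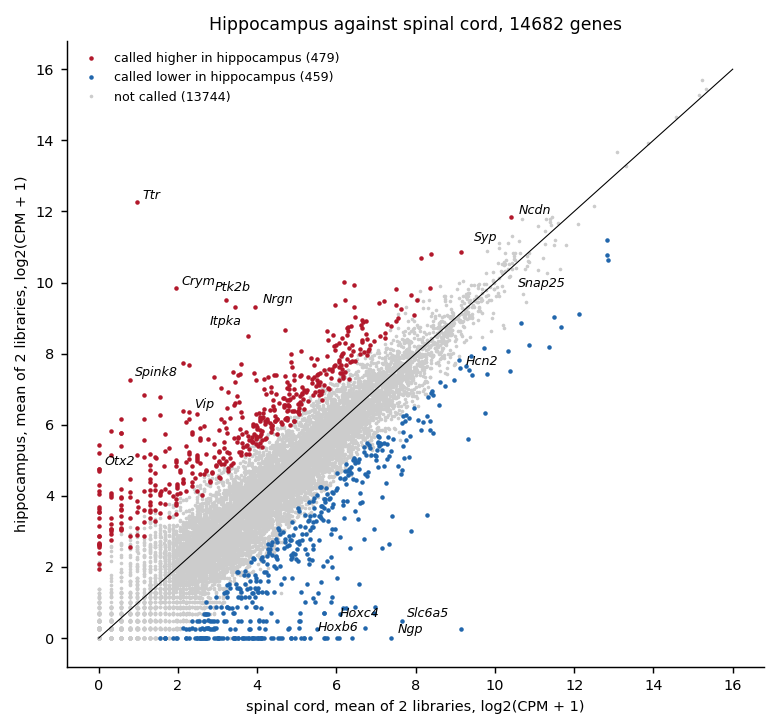
Mean level of the 14682 tested genes in hippocampus (vertical) against spinal cord (horizontal), both as log2(CPM + 1) over 2 libraries; red points are the 479 genes called higher, blue points the 459 called lower, and the line marks equal levels. Crym, Ptk2b, Itpka and Nrgn lie far above the line, and Hox genes and Ngp lie on or near the lower axis.

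Of the 10 largest decreases by the same rule, 7 were Hox genes, which mark position along the trunk and are silent in the forebrain. Hoxb6 had no count in hippocampus and 63.5 and 68.4 CPM in spinal cord, which is at least 108-fold lower in hippocampus. Hoxa7, Hoxb5, Hoxb7, Hoxb8 and Hoxc6 also had no count in hippocampus, and Hoxc4 had 1 count against 429 in spinal cord. Slc6a5, the glycine transporter of inhibitory spinal neurons, was read 2 times in hippocampus and 828 times in spinal cord. Ngp, a granule protein of immature neutrophils, had no count in hippocampus and 195 and 132 CPM in spinal cord.

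Ngp belongs to a list of 12 blood genes, of which 11 were tested and 9 were lower in hippocampus than in spinal cord, none higher. Their sum was 877 and 845 CPM in hippocampus and 7462 and 7762 CPM in spinal cord, and 4 of the 11 (S100a8, Ngp, Ltf and Camp) had no count in hippocampus. Adult beta-globin Hbb-b2 had 564 and 534 CPM in hippocampus, against 4529.7 and 4416 CPM in spinal cord (log2 fold -2.91 ± 0.58, adjusted p = 0.00419), although its tags may be shared with the near-identical Hbb-b1. The part of blood and marrow cells in the other decreases was not tested.

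Genes lower in hippocampus than in each of the other 6 tissues were 14. The 10 with the highest level elsewhere follow. Lyz2 (lysozyme of macrophages and neutrophils) had 18.1 and 21.4 CPM in hippocampus and 36.2 to 6118 CPM with a median of 126 in the 12 other libraries. Cd74 and H2-Ab1, of antigen presentation, had 13.9 and 11.1 CPM and 5.90 and 5.14 CPM in hippocampus. Their lowest values in the other libraries were 23.4 CPM and 9.05 CPM. C3, the central complement protein, had 0.421 and 1.98 CPM in hippocampus and 8.67 to 2179 CPM with a median of 41.6 in the 12 other libraries. Anxa1, an anti-inflammatory annexin, had 1.26 and 1.19 CPM, and Plac8 had no count in hippocampus. Adh1 (alcohol dehydrogenase), Car3 (a carbonic anhydrase of fat and muscle) and Hp (haptoglobin) had at most 1.69 CPM in a hippocampus library. The tenth is a UniGene cluster that has no symbol in the sources used here. The call on these 14 depended on the scaling: with library totals 3 were called, and 2 to 73 when a single library was left out.

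Mitochondrial transcripts took 20.5% and 19.8% of the gene counts in hippocampus, and 0.746% to 18.4% in the 12 other libraries. Of 11 tested mitochondrial genes 3 were higher than the 6-tissue mean, near the 28% of all genes, and none differed from spinal cord by the test. With scaling by library totals all 11 were higher than that mean, as were 8750 of all 14682 genes. The ribosomal RNA gene mt-Rnr2 had 3798 and 3561 CPM in hippocampus, against 2647 and 2871 CPM in spinal cord.

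The sexes were compared with 1 hippocampus library each, whose spread was assumed to be that of the other 6 pairs. Those pairs include stomach, whose libraries stood apart, and pancreas, whose male label is in doubt. They also include liver, where sex and lobe cannot be told apart. Of liver genes at 20 CPM or more in both libraries, 7.59% lay 2-fold or more apart. The counts below therefore set no limit on sex differences in hippocampus. One gene of 14682 (0.00681%) was called. Ddx3y, a Y-linked RNA helicase, had 63.7 CPM in the male and no count in the female library (log2 fold of male over female 9.50 ± 1.32, adjusted p = 0.00399). No gene was called higher in the female, and without adjustment 55 genes had a p under 0.05 with the male higher and 34 with the female higher. Together these are fewer than 0.05 of the 14682 genes, the share expected where no gene differs. Xist was read 1 time in the male and 231 times in the female library (unadjusted p = 6.16e-04 by the edgeR model, adjusted p = 1). Eif2s3y and Kdm5d, also Y-linked, had 12.3 and 7.51 CPM in the male and 0.421 CPM each in the female library. Both hippocampus libraries thus matched the sex on their labels. The Ddx3y call was lost without the library labelled male pancreas and with DESeq2 or limma voom. The test of whether the sex difference in hippocampus departs from that in the other 6 tissues called 0 genes with edgeR, DESeq2 and voom. By the edgeR model 91 genes had an unadjusted p under 0.05, again fewer than that share of the 14682. Ttr, at 6586 CPM in the male and 3208 CPM in the female library, had an unadjusted p of 0.162 by the same model.

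A gene with several GATC sites or transcript ends can be read from several tags, so the share of each tag within its gene was compared between hippocampus and the mean of the other 6 tissues. Of 4842 genes with at least 2 tags, 649 (13.4%) shifted. This share does not depend on how libraries are scaled. Among 3208 genes with at least 100 counts on both sides, 337 had another most abundant tag in hippocampus than in the other 12 libraries, and 136 of them were also called. The counts of those 12 libraries were added together for this, so the hippocampus tag can also be the most abundant one in spinal cord. The 2 tags of 4 such genes are shown, the one most abundant in hippocampus and then the one most abundant in the other 12 libraries added together.
Cdc42, hippocampus: GATCatttaaaacaaaggaa
Cdc42, other tissues: GATCttgtggattcgttagt
Atp2a2, hippocampus: GATCtgtcatgtgatataca
Atp2a2, other tissues: GATCcaatcgactgggtttc
Colgalt1, hippocampus: GATCcgggtgacacaggtga
Colgalt1, other tissues: GATCatcagtcttttattgt
Asph, hippocampus: GATCagtgcatctaaaaaac
Asph, other tissues: GATCcaagtacttaaaatgc
For Cdc42, a GTPase of the actin cytoskeleton, the first tag held 48.5% and 47.6% of the gene's counts in hippocampus. It held 30.7% and 38.5% in spinal cord, and over the 12 other libraries its lowest share was 0.962% and its median 2.08%. For Atp2a2, the calcium pump of the endoplasmic reticulum, it held 44.4% and 37.6% in hippocampus, against 41.3% and 34.8% in spinal cord and a median of 0.957% over the 12. The 2 nervous tissues overlapped for Atp2a2 and not for Cdc42.

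Colgalt1, which glycosylates collagen, had 63.1% and 63.7% in hippocampus, against 12.1% and 43.1% in spinal cord. Asph, an aspartyl hydroxylase, had 40.8% and 37.1% in hippocampus, against 28.5% and 25.1% in spinal cord. The median of the 12 other libraries was 0% for both genes. Nubp1 had 82.6% and 90.8% in hippocampus and 92.1% and 85.3% in spinal cord, so that its tag marked both nervous tissues. H13, Elk4 and Lrrc40 completed the 8 genes with a symbol and the smallest adjusted p among the 136. In all 3 both hippocampus libraries lay above both spinal cord libraries. How many of the 136 separate in this way was not counted. The number of shifted genes was 233 and 212 without a hippocampus library and 1111 and 1011 without a stomach library.

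**Figure D5:**
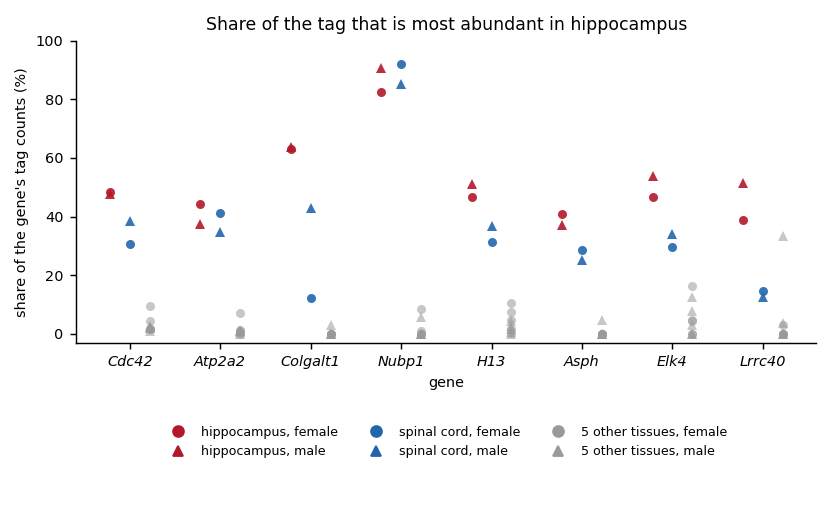
Share (%) of a gene's counts held by the tag that is most abundant in hippocampus, in each of 14 libraries for 8 genes; red is hippocampus, blue spinal cord and grey the 5 other tissues, circles female and triangles male. The hippocampus libraries are highest for Cdc42, Colgalt1, H13, Asph, Elk4 and Lrrc40, and spinal cord reaches the same shares for Atp2a2 and Nubp1.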

How the data were processed

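The authors' deposited files give a count for each distinct 20-base tag in 14 libraries, with no normalization, beside a UniGene cluster or mitochondrial gene, a class code and a title. The sources used here name no aligner, genome build or code legend. Codes 1 to 4 were assumed to be the sense strand of a transcript. Symbols were taken through the RefSeq accession or title in the files, and 8268 genes are known by their title only. No genome was used, so no coordinates are given.

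Counts were tested with edgeR 4.0.16 in R 4.3.3 (TMM scaling, filterByExpr by tissue, quasi-likelihood F tests) in 1 fit of all 14 libraries with terms for tissue and sex, which left 6 residual degrees of freedom. A gene was called at a Benjamini-Hochberg adjusted p under 0.05 and at least 2-fold, with no minimum fold for sex. Sex had 1 term for hippocampus and another for the remaining tissues, which left 5 residual degrees of freedom. Standard errors are the fold divided by the square root of F. Tag shares were tested with diffSpliceDGE. A tissue has 1 library per sex and nothing says how many animals it holds, so p-values measure the spread between these libraries. Where a gene had no count in a tissue, a floor of 3 counts over its libraries gave a lower bound. Exact intervals cover counting error only. The calculations were tested on simulated data with known changes. Apart from those changes, all simulated tissues shared the same mean profile, so the simulation sets no error rate for the data here. DESeq2 1.42.0, limma voom 3.58.1, other scalings, no filter, the most abundant tag only, no mitochondrial genes, no sex term and leaving out each library were tried.

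Named genes follow a rule. They are the 3 markers, the 20 genes with a symbol and the largest ratio to the next tissue at 20 CPM or more, up to 4 called and 2 uncalled members of a list (any member for fields, neighbouring tissue and sex), up to 10 genes lower than in each tissue, 10 with a symbol per direction against spinal cord, 6 per sex, and 8 with a symbol for tag shares. The members and the 34 lists (511 genes, 479 with a cluster, 429 tested) were chosen with earlier results of these data known. A few genes and tags that the rule names are not reported here. Tables and figures were made in Python 3.11.15 (matplotlib 3.10.9, pandas 2.3.3, numpy 2.4.6, scipy 1.17.1).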

Additional observations from a re-analysis of the deposited data

Results flagged for a closer look

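Part of each hippocampus library lies outside the counts used for genes, and each such class was above 0. Its share of the library's counts is given as the mean of the female and the male hippocampus library, with the range of the 12 other libraries. Tags of codes 5 and 6, read here as other positions of a transcript, took 2.65% in hippocampus and 0.183% to 2.54% elsewhere. Tags of codes 11 to 16, read here as the reverse strand, took 8.51% in hippocampus and 2.84% to 8.69% elsewhere. Tags of codes 21 to 26 took 1.63% in hippocampus and 0.310% to 1.70% elsewhere. Tags placed only on the genome (code 1000) took 4.30% in hippocampus and 0.276% to 11.96% elsewhere. Repeats (code 0) took 2.49% in hippocampus and 0.151% to 3.50% elsewhere. Tags with no assignment took 10.6% in hippocampus and 3.69% to 18.6% elsewhere. In 5 of the 6 classes the highest of the other libraries was a spinal cord library, and for tags with no assignment it was the female stomach library.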

How the results depend on the processing

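No paired analysis was possible because the labels carry no replicate numbers, and sex was a term of the fit. Genes higher and lower than the mean of the other 6 tissues numbered 4116 and 1891, and 8750 and 475 with library totals, while limma voom called 3243 lower. Leaving out 1 library gave 3313 to 4441 higher and 1051 to 2041 lower. Against spinal cord 479 were higher and 459 lower. A fit of only the 4 libraries of hippocampus and spinal cord called 1066 and 1146, and leaving out 1 library gave 127 to 1008 higher and 135 to 1206 lower. Genes higher than in each tissue numbered 154, and 288 with no filter, and 34 to 482 without 1 library. Genes lower than in each numbered 14, with 3 by library totals, 27 with no filter, 25 by voom and 9 with no sex term, and 2 to 73 without 1 library. For sex, the 1 gene higher in the male became 2 with DESeq2 size factors, 2 with library totals, 2 with no filter, and 0 with DESeq2 and with limma voom. It was 0 to 3 without 1 library, and the 0 genes higher in the female became 1 with no filter and 0 to 1 without 1 library. Shifted tag usage was called for 649 genes, and for 212 to 1111 without 1 library. For these counts the cause of each change was not tested. Of 33 named folds none changed sign in 755 alternative values, and 68 values were no longer past the threshold. Of those, 4 were with DESeq2, 2 with limma voom, 3 with the most abundant tag only and the rest without 1 library, which ended the call for 18 of the 33 in at least 1 case. Depth limits genes under about 1.26 CPM in the female and 1.19 CPM in the male hippocampus library.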
